A study of Mus musculus with 12 samples.

Results

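The genes described here encode the subunits of the 5 protein complexes of oxidative phosphorylation that are read from the nuclear genome. They were chosen by name alone, as all genes whose symbol began with Nduf followed by a, b, c, s or v and a number, with Uqcr, with Cox4 to Cox8 or with Atp5, together with Sdha, Sdhb, Sdhc and Sdhd. Of 90 matching names, 6 that are annotated as pseudogenes were left out, which gave 84 genes of the 52636 in the count tables. By complex these were 35 genes for complex I, 4 for complex II, 8 for complex III, 20 for complex IV and 17 for complex V. Ndufa4 and Ndufa4l2, which carry a complex I name, were counted with complex IV, where the Ndufa4 protein is known to sit. Atp5s and Atp5sl matched the rule but are not structural subunits of the ATP synthase. All 84 are protein-coding, and they lie on 19 chromosomes.

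The study asked how calcitonin gene-related peptide (CGRP), a neuropeptide released by sensory neurons, acts on neutrophils and macrophages. Messenger RNA was sequenced in 4 groups of 3 libraries from bone marrow of C57BL/6J mice aged 8 to 12 weeks. Neutrophils were enriched with a kit and cultured for 4 h in RPMI with saline (PBS) or with CGRP (1 nM). Monocytes isolated with a kit were first cultured for 3 days with M-CSF (10 ng/ml), the growth factor that turns them into macrophages, in DMEM/F12, and then received saline or CGRP (1 nM) for 4 h. None of the groups carried a transgene or a deletion, and the sources used here do not say whether the 3 libraries of a group came from separate mice, so p-values measure the spread between these libraries, which may be technical. Macrophages and neutrophils were prepared, cultured and tabulated separately, so that cell type cannot be told apart from culture time, medium or preparation. In these bulk samples a gene that is lower because fewer cells express it and one that is lower because each cell holds less of its RNA cannot be told apart.

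Oxidative phosphorylation takes place in the inner membrane of mitochondria. Complexes I (NADH dehydrogenase) and II (succinate dehydrogenase) feed electrons into the chain, complex III passes them to cytochrome c, complex IV (cytochrome c oxidase) hands them to oxygen, and complex V (ATP synthase) uses the resulting proton gradient to make ATP. Complexes I, III, IV and V combine nuclear-encoded subunits with a few that mitochondrial DNA encodes, whereas complex II is entirely nuclear-encoded. Neutrophils are known to hold few mitochondria and to rely mainly on glycolysis, and macrophages shift between glycolysis and respiration as they are activated.

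Counts of molecular identifiers assigned to genes totalled 2719556 to 3631989 in the saline neutrophil libraries and 2196558 to 3270388 in those with CGRP. They totalled 2536415 to 3477069 in the saline macrophage libraries and 2002559 to 3259073 in those with CGRP. The 84 genes held a share of 1.98% to 2.11% of all counts in neutrophil libraries and of 3% to 3.48% in macrophage libraries. Levels are given as counts per 1000000 counts (CPM), scaled by the trimmed mean of M values (TMM) over the 12 libraries. Low counts left 5 of the 84 genes untested, all with complex IV: Cox4i2 (3 counts over all 12 libraries), Cox8b (2), Cox8c (1), Cox7b2 (0) and Ndufa4l2 (0). Cox4i2, Cox8b, Cox8c and Cox7b2 are known mainly from lung, muscle or testis, and 3 counts in a single library, the limit that a count of 0 allows, correspond to 0.826 to 1.5 CPM here. The other 79 genes were tested in every comparison.

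The neutrophil libraries carried their cell type's markers. All 12 neutrophil genes listed, among them S100a8, summed to between 161117 and 241397 CPM in the neutrophil libraries and to at most 450.04 CPM in the macrophage libraries. The 14 monocyte and macrophage genes, led by Lyz2, summed to between 67635.8 and 97047.8 CPM in macrophages and to between 17658.4 and 27408 CPM in neutrophils. Of these, 13 (92.9%) were called higher in saline macrophages, beside 32.5% of all genes. Ccr2 was not, with 328, 307 and 316 CPM in saline neutrophils and 288, 290 and 274 CPM in saline macrophages. Other monocyte genes were also found in saline neutrophils, such as Csf1r (mean 201 CPM, macrophages 774) and Apoe (1248 CPM, macrophages 24720). Neutrophil libraries also held erythroid RNA (8 genes, led by Hbb-bs, 5856.61 to 7466.34 CPM), eosinophil, basophil and mast cell RNA (8 genes, led by Prss34, 1476.26 to 1812.18 CPM) and low levels of B cell (8 genes, led by Cd79b, 155.926 to 187.275 CPM) and of T and NK cell RNA (9 genes, led by Nkg7, 86.2347 to 134.382 CPM). In macrophages the erythroid genes summed to at most 27.8927 CPM and the eosinophil, basophil and mast cell genes to at most 25.7726 CPM. The B cell genes summed to between 31.2814 and 40.636 CPM there and the T and NK cell genes to at most 1.10826 CPM. The defining markers Epx, Slc4a1 and Cd3e were at 0 in every macrophage library, but Cd3e had at most 3 counts in a neutrophil library. Cd3d had 3 counts in CGRP macrophage library 1 and 1 in library 2. The 8 platelet and megakaryocyte genes, led by Pf4, summed to between 135.512 and 205.157 CPM in neutrophils and to between 631.412 and 978.458 CPM in macrophages. Of the 5 of these genes tested, Pf4 alone was higher in saline macrophages and 4 were lower, and Gp1ba was at 0 in all 12 libraries. The part that these other cells play in the differences between cell types below was not tested.

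The stretches just before the start sites of 6 members are printed here because the results turn on these genes: Atp5d passed the test for CGRP, Cox7a1, Cox6b2 and Uqcr11 differed most between the cell types in their complexes, and Cox7a2 and Cox6b1 are the widely used counterparts of Cox7a1 and Cox6b2. Each is 250 bases long, taken from RefSeq (GRCm38.p6), written in the gene's own direction, and ends at the base before a RefSeq start. Atp5d had another such window, chr10:80142065-80142314, which is not printed. Capitals mark an ETS match (CCGGAAG or its reverse complement CTTCCGG).
Atp5d chr10:80142025-80142274, plus strand: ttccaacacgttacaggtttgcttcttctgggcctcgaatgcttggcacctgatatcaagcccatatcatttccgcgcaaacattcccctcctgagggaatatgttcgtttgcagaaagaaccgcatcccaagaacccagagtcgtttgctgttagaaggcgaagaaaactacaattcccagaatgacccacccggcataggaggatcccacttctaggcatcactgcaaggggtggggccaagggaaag
Cox7a1 chr7:30183921-30184170, plus strand: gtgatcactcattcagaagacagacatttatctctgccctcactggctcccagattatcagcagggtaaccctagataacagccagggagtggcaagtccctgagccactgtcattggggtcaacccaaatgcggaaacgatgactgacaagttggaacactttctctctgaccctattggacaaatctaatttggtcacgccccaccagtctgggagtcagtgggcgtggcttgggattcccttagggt
Cox7a2 chr9:79759854-79760103, minus strand: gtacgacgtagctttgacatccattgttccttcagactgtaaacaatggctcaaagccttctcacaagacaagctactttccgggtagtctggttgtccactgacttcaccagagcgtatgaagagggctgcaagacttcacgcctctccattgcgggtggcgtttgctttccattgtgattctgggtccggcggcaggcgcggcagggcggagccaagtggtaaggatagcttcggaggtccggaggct
Cox6b2 chr7:4753095-4753344, minus strand: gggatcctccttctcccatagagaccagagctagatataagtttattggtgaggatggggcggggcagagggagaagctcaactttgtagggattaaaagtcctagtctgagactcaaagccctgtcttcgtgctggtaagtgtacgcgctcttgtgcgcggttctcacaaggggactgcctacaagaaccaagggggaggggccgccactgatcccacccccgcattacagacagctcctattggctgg
Cox6b1 chr7:30626115-30626364, minus strand: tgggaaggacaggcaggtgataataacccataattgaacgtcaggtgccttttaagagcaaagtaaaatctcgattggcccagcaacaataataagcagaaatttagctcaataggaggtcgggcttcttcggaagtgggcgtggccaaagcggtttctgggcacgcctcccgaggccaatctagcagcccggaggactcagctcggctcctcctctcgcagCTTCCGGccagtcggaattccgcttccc
Uqcr11 chr10:80406822-80407071, minus strand: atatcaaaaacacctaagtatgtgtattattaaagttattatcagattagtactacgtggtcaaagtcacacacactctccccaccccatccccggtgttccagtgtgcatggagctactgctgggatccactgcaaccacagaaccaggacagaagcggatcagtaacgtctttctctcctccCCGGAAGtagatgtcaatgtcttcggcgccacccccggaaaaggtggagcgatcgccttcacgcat

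Of the 84 genes, 66 had a RefSeq window under the same symbol, and these gave 71 windows. Each window of the 250 bases was searched on both strands for 5 motifs, none of which contains another. The ETS letters CCGGAAG stood in 12 member windows (16.9%) against 6.91% of all 32851 windows. The NRF1 letters GCGCATGC stood in 8 (11.3%, all windows 2.26%), among them those of Sdhb, Cox6a1 and Ndufa8. NRF1 and the ETS factor GABP are regulators known from many nuclear genes of the respiratory chain. The cAMP response element TGACGTCA, the site of the factor that acts below the cAMP-raising CGRP receptor, stood in 4 (5.63%, all windows 1.55%), in front of Ndufa10, Ndufa11, Ndufb2 and Uqcrfs1. The ERR letters CAAGGTCA stood in 3 (4.23%, all windows 1.33%) and the YY1 letters AAGATGGCG in 1 (1.41%, all windows 0.606%). Member windows held a median of 14 CG pairs against 6 over all windows, and a median GC content of 56% against 52.4%. These matches are descriptions of the letters and not sites of binding.

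Summed over all members, the levels of the 2 treatments overlapped within each cell type. In saline neutrophils the 84 genes summed to 21209, 22026 and 20322 CPM, and with CGRP to 22450, 19168 and 20192 CPM. In saline macrophages they summed to 31149, 36261 and 27552 CPM, and with CGRP to 35067, 30311 and 30242 CPM. Every macrophage library was above every neutrophil library. The same separation held for each of the 5 complexes, with complex II, for example, at 533.57 to 616.45 CPM in neutrophils and 884.87 to 990.66 CPM in macrophages. Libraries of a group moved as a whole. The second saline macrophage library was the highest of its group for 66 of the 79 genes and the third was the lowest for 67. The first CGRP library was the highest of its group for 63 genes in neutrophils and for 62 in macrophages.

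**Figure D1:**
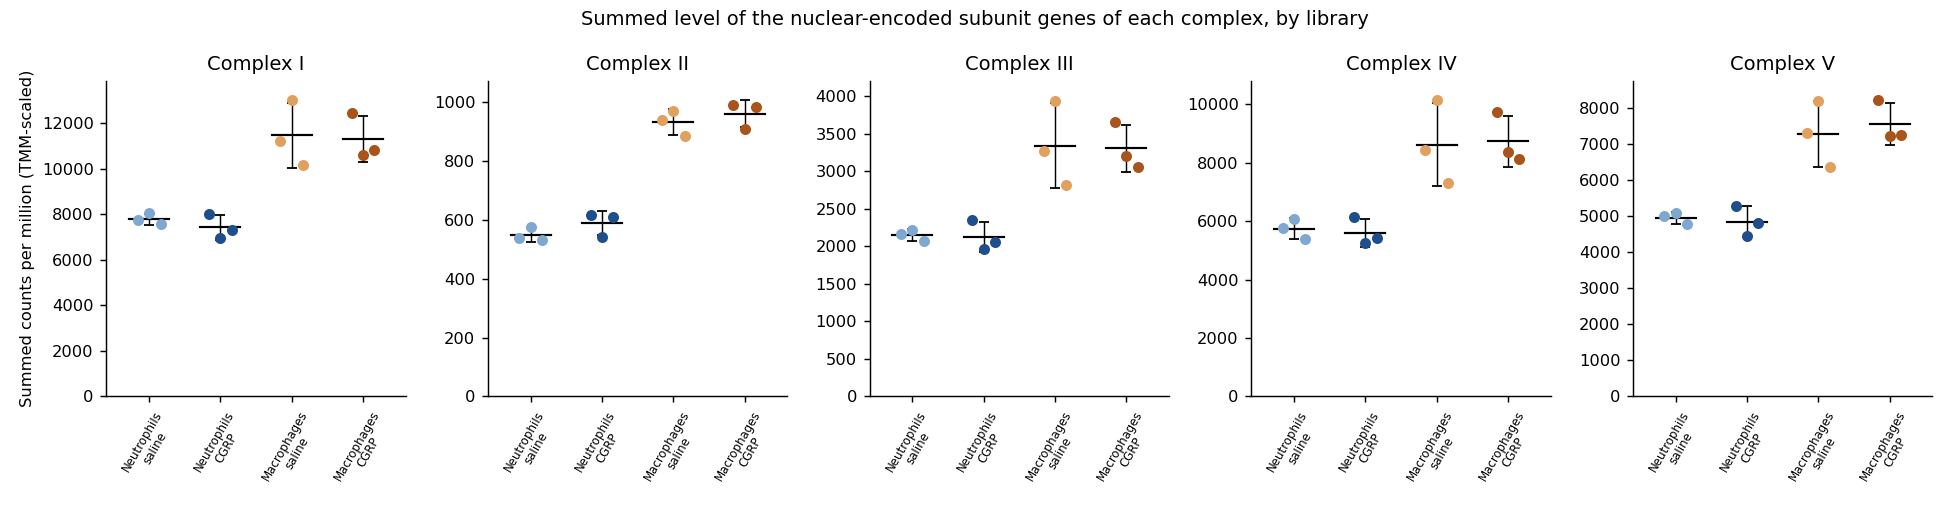
Summed TMM-scaled CPM (y axis, from 0, its own scale in each panel) of the members of complexes I to V in the 4 groups (x axis). Points are the 3 libraries of a group in label order, the bar is their mean and the whiskers 1 SD; saline and CGRP points overlap within each cell type, and macrophage points lie above neutrophil points in all 5 panels.

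The first comparison asked whether CGRP changed these genes in neutrophils. None of the 79 genes passed the test (limma-voom, Benjamini-Hochberg adjusted p over all genes tested), whereas 2.53% of the 9819 genes tested did (1.51% higher, 1.02% lower). edgeR's quasi-likelihood test and DESeq2 also called 0. At an unadjusted p under 0.05 there were 7 members (1 higher, 6 lower) against 12.8% of all genes. The differences were small in most members: the median log2 fold change was −0.03 (all genes 0.00), with 31 members above 0 and 48 below (with library totals in place of TMM the median was 0.03), and the 95% confidence interval lay within 1.5-fold in either direction for 73 of the 79 (92.4%; all genes 51.9%). The CGRP and saline libraries did not overlap for 2 members that were higher (background 8.10%) and 8 that were lower (background 9.69%). By complex the medians were −0.04 for complex I, 0.13 for II, −0.02 for III, −0.01 for IV and −0.04 for V.

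The lowest p in neutrophils belonged to Cox6a2, the complex IV subunit VIa form known from heart and skeletal muscle, located at chr7:128205435-128206387 on the minus strand. Cox6a2 stood at 14.9, 20.6 and 18.0 CPM with saline (47, 67 and 50 counts) and at 11.1, 10.9 and 8.33 CPM with CGRP (34, 37 and 19 counts). All 3 CGRP libraries lay below all 3 saline libraries, but on few counts. The log2 fold change was −0.77 (SE 0.23, limma-voom adjusted p = 0.0843), and adjusted p ranged from 0.0686 to 0.170 over 12 alternative settings, so Cox6a2 did not pass the test in any of them. Ndufv3, an accessory subunit of the NADH-oxidizing tip of complex I, stood at 273, 289 and 285 CPM with saline and at 252, 233 and 212 CPM with CGRP. Here too the groups did not overlap, with a log2 fold change of −0.27 (SE 0.08, limma-voom adjusted p = 0.122).

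In the other complexes the lowest p was further from the threshold. Uqcrfs1, the Rieske iron-sulfur protein of complex III, had 160, 169 and 157 CPM with saline and 193, 172 and 181 CPM with CGRP (log2 fold change 0.18, limma-voom adjusted p = 0.406). Atp5k, a membrane subunit of complex V, had 356, 372 and 330 CPM with saline and 332, 293 and 314 CPM with CGRP (log2 fold change −0.16, limma-voom adjusted p = 0.443). Sdhd, a membrane anchor of complex II, had 151, 181 and 154 CPM with saline and 183, 174 and 173 CPM with CGRP (log2 fold change 0.14, limma-voom adjusted p = 0.578). The groups did not overlap for Uqcrfs1 and overlapped for Atp5k and Sdhd. The 4 genes with a cAMP response element in front of them had log2 fold changes of 0.04 (Ndufa10), 0.19 (Ndufa11), 0.10 (Ndufb2) and 0.18 (Uqcrfs1) in neutrophils and of 0.09, −0.07, −0.10 and 0.02 in macrophages, none past the threshold.

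The second comparison asked the same of macrophages. A single gene of the 79, Atp5d, passed the test there (limma-voom, adjusted p over all genes), and 7.43% of the 9393 genes tested did (3.46% higher, 3.97% lower). None was called lower by limma-voom, edgeR or DESeq2, and 2 members had an unadjusted p under 0.05, Atp5d and Ndufa12, against 19.8% of all genes. The median log2 fold change was 0.01 (all genes 0.00), with 42 members above 0 and 37 below, and was −0.0450 with library totals. The libraries were less alike than in neutrophils, with a median half-width of the 95% confidence interval of 0.31 on the log2 scale against 0.19, and the interval still lay within 1.5-fold for 73 of the 79 (92.4%; all genes 30.5%). The groups did not overlap for 4 members that were higher (background 11.6%) and 2 that were lower (background 12.5%). Medians by complex were −0.01 for I, 0.03 for II, −0.01 for III, 0.03 for IV and 0.09 for V.

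**Figure D2:**
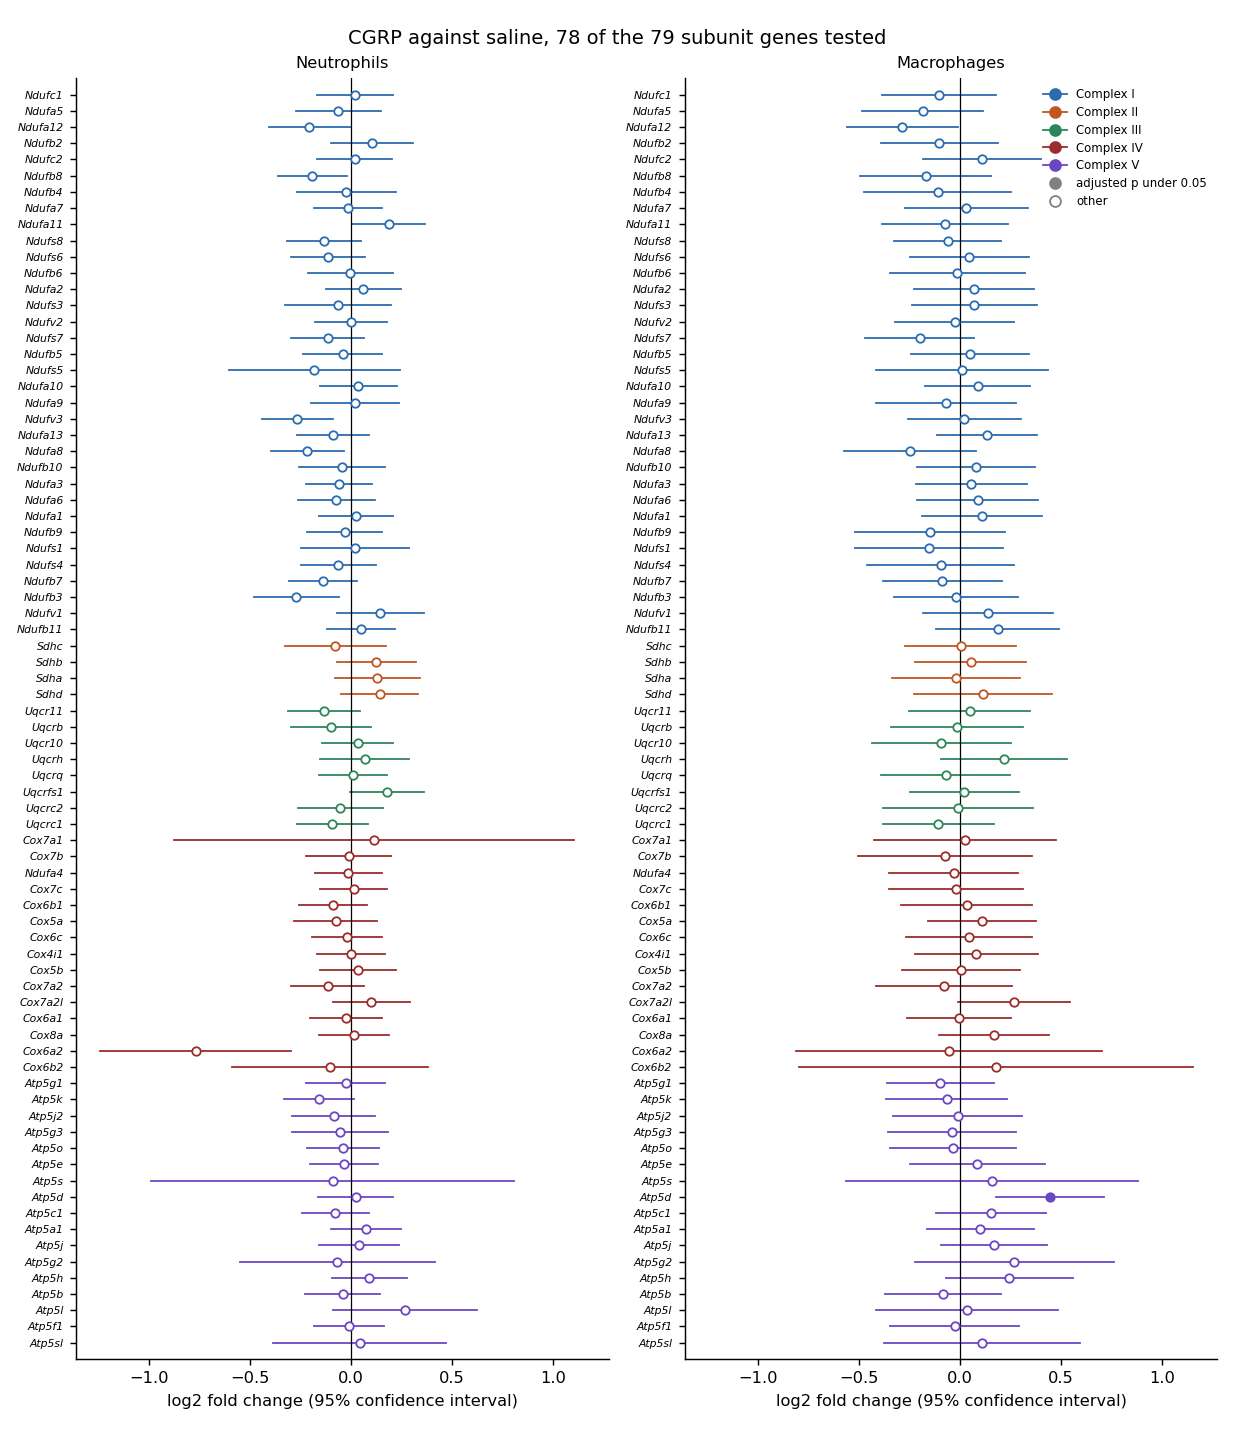
Log2 fold change of CGRP against saline (x axis, points) with its 95% confidence interval (lines) for 78 of the 79 genes tested (y axis, grouped and coloured by complex), in neutrophils (left) and macrophages (right). Filled points passed an adjusted p under 0.05; the single filled point is Atp5d in macrophages, and most of the others lie close to 0 in both panels.

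Atp5d encodes the delta subunit in the central stalk of the F1 part of ATP synthase, which turns with the c ring. The gene lies at chr10:80138632-80145818 on the plus strand. In macrophages it stood at 378, 349 and 373 CPM with saline and at 446, 513 and 544 CPM with CGRP, every CGRP library above every saline library. It rose by 0.45 on the log2 scale (SE 0.13, 95% interval 0.18 to 0.71, limma-voom adjusted p = 0.0400). In neutrophils the same gene stood at 265, 291 and 266 CPM with saline and at 313, 251 and 266 CPM with CGRP, and the groups overlapped. The call was close to the threshold. Over 12 alternative settings the adjusted p lay between 0.00659 and 0.0775. The call was lost when library totals replaced TMM (0.0775) and when a trend with the exonic length of genes was removed (0.0576). Dropping 1 of the 6 libraries ended the call in 4 cases, without saline library 1 (0.152) or 2 (0.0815) and without CGRP library 2 (0.179) or 3 (0.186). In the 6 fits that lost the call the log2 fold change was still 0.39 to 0.47. Cbarp, on the opposite strand, overlaps Atp5d in the annotation but had 44 counts in all against 12362.

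The other subunits of the F1 part did not pass. Ndufa12, an accessory complex I subunit, had the next lowest p of the 79: 347, 354 and 291 CPM with saline and 274, 253 and 283 CPM with CGRP, without overlap (log2 fold change −0.28, SE 0.13, limma-voom adjusted p = 0.234). Cox7a2l, counted here with complex IV, had 200, 238 and 200 CPM with saline and 272, 249 and 245 CPM with CGRP, also without overlap (log2 fold change 0.27, SE 0.13, limma-voom adjusted p = 0.266). Uqcrh, the hinge protein of complex III, had 419, 513 and 346 CPM with saline and 528, 477 and 463 CPM with CGRP, and these overlapped (log2 fold change 0.22, limma-voom adjusted p = 0.452). Sdhd had 218, 254 and 187 CPM with saline and 295, 206 and 215 CPM with CGRP, with overlap and a log2 fold change of 0.12 (limma-voom adjusted p = 0.756), which turned to −0.05 without CGRP library 1.

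**Figure D3:**
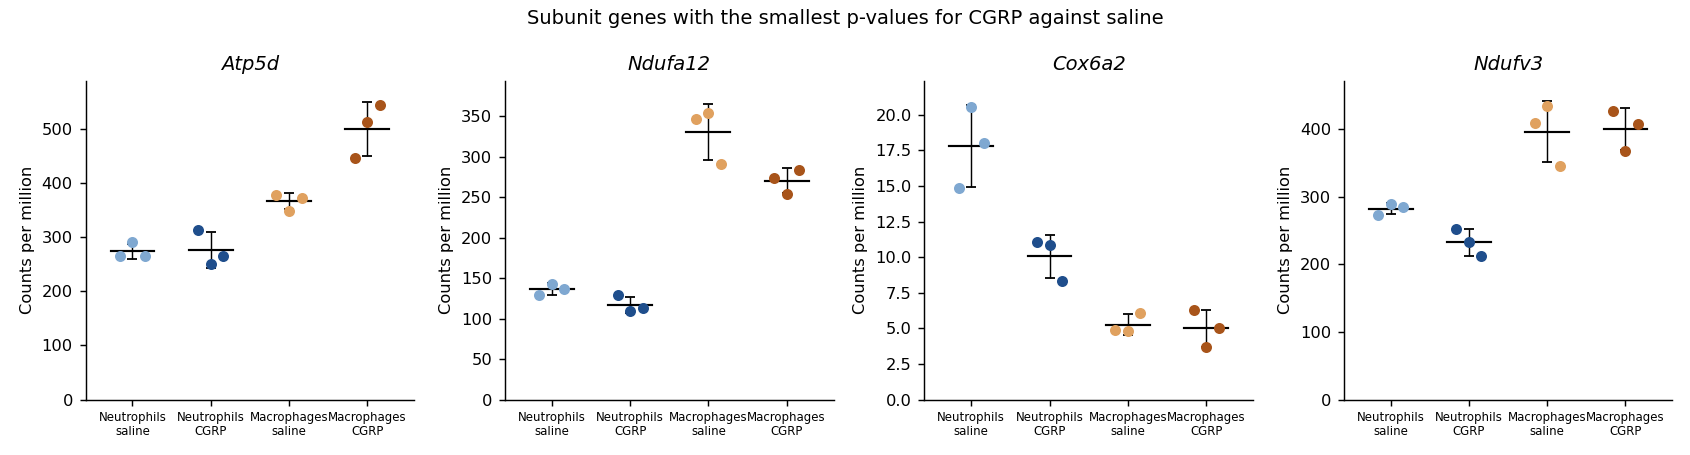
TMM-scaled CPM (y axes, from 0) of Atp5d, Ndufa12, Cox6a2 and Ndufv3 in the 4 groups (x axis); points are libraries, bars means and whiskers 1 SD (n = 3). Atp5d in macrophages is higher in all 3 CGRP libraries and is the only one of these differences that passed the test; for Cox6a2 and Ndufv3 the neutrophil groups, and for Ndufa12 both pairs of groups, are apart without passing it.

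Whether the effect of CGRP differed between the cell types was tested as a difference of the differences over all 12 libraries. None of the 79 genes passed (limma-voom, adjusted p), and 2.36% of the 10694 genes tested did (1.21% higher, 1.15% lower). edgeR and DESeq2 also called 0, and 1 member, Atp5d, had an unadjusted p under 0.05 (13.2% of all genes did). For Atp5d the macrophage effect exceeded the neutrophil effect by 0.43 on the log2 scale (95% interval 0.12 to 0.75, limma-voom adjusted p = 0.176). It passed in a fit that weights libraries by their quality (limma-voom adjusted p = 0.0488), the only alternative in which a member did. For Cox6a2 the difference was 0.73, with a wide interval from −0.13 to 1.59 (limma-voom adjusted p = 0.499).

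Genes that work with these subunits were followed in 5 lists. Of the 13 subunits that mitochondrial DNA encodes, 6 could be tested for CGRP. mt-Co1, the catalytic subunit of complex IV, stood at 290, 285 and 300 CPM in saline neutrophils and at 398, 375 and 329 CPM with CGRP, with no overlap. It rose by 0.35 on the log2 scale (SE 0.08, limma-voom adjusted p = 0.0290). In macrophages mt-Co1 stood at 165, 163 and 210 CPM with saline and at 199, 202 and 229 CPM with CGRP, which overlapped (log2 fold change 0.24, limma-voom adjusted p = 0.370), and the difference between the cell types was −0.09 (adjusted p = 0.875). In the mouse annotation 95.5% of the 31-base words in the last 500 bases of mt-Co1 also occur in other annotated genes, so its count depends on how reads that match several places were treated. By the same measure mt-Co2 (100% shared) had 0 to 4 counts a library and mt-Co3 (99.8%) 0 to 27. The unshared mt-Nd1 (0%) had 1769 to 4798, but mt-Nd6 (7.66%) was also low, at 0 to 9. In the same neutrophil libraries Cd14 was higher with CGRP (log2 fold change 0.79) and Ccr2 (−0.49) and Lyz2 (−0.39) were lower, 3 of 13 monocyte and macrophage markers tested (23.1%), and Itgb3 was lower (−1.96), 1 of 5 platelet markers (20%). Over all genes 2.53% passed in neutrophils, and mt-Co1 was 16.7% of the mitochondrially encoded genes tested. Their part in the mt-Co1 change was not tested. None of the 17 other subunits and carriers tested passed in either cell type, beside 2.53% of all genes in neutrophils and 7.43% in macrophages.

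In the other lists 3 genes fell with CGRP in macrophages. Pdk1, a kinase that holds pyruvate dehydrogenase inactive, went from 49.6, 54.5 and 37.0 CPM to 23.5, 21.1 and 15.1 CPM (log2 fold change −1.21, SE 0.22, limma-voom adjusted p = 0.00231). Myc, a transcription factor of growth and mitochondrial biogenesis, went from 25.2, 18.9 and 16.5 CPM to 4.70, 5.91 and 5.53 CPM (log2 fold change −1.88, SE 0.31, limma-voom adjusted p = 9.48e-04). Cox20, a chaperone for a mitochondrially encoded subunit of complex IV, went from 191, 194 and 174 CPM to 134, 142 and 133 CPM (log2 fold change −0.44, SE 0.13, limma-voom adjusted p = 0.0459). The groups did not overlap for any of the 3. These were 1 of 25 citrate cycle and pyruvate genes, 1 of 18 regulators and 1 of 45 assembly factors tested, beside 7.43% of all genes, and none of those lists had a gene past the threshold in neutrophils. Pdk3, another of the pyruvate dehydrogenase kinases, was the only gene of the 5 lists whose CGRP effect differed between the cell types (difference 0.97, SE 0.26, limma-voom adjusted p = 0.0478). It stood at 17.8, 17.1 and 17.6 CPM in saline macrophages and at 22.9, 30.7 and 35.7 CPM with CGRP (log2 fold change 0.71, limma-voom adjusted p = 0.0558), and at 46.8, 40.5 and 50.1 CPM in saline neutrophils against 31.9, 40.5 and 42.5 CPM (log2 fold change −0.25, limma-voom adjusted p = 0.518).

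Markers of other states moved with CGRP in the same macrophage libraries. Of 8 cycling markers 6 fell (75%), beside 3.97% of all genes called lower. The list, led by Top2a, had a median log2 fold change of −0.97. Its summed level was 313.174 to 467.203 CPM with saline and 162.507 to 277.36 CPM with CGRP. Of 14 monocyte and macrophage markers 2 rose, Cd14 (log2 fold change 2.38) and Apoe (0.46), and 1 fell, Ccr2 (−0.81). That was 21.4% of the list, beside 7.43% of all genes. None of the 9 neutrophil markers tested passed, although all lay above 0 with a median of 0.38. The part of cycling or other cells in the changes of Atp5d, Pdk1, Myc and Cox20 was not tested.

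The third comparison set saline macrophages against saline neutrophils. Relative to the other RNA of their libraries, most of these subunits stood higher in macrophages: 54 of the 79 genes were higher and 3 lower (limma-voom, adjusted p over all genes). Amounts of RNA per cell were not measured. Of all 10694 genes tested 67.9% passed, 32.5% higher and 35.4% lower, so that the share of members called (72.2%) was near that of all genes and the share called higher (68.4%) was not. The median log2 difference was 0.50 (a ratio of 1.42) against −0.03 over all genes. The libraries did not overlap for 55 members that were higher in macrophages (background 33.9%) and 4 that were lower (background 36.6%). Medians were 0.53 for complex I, 0.77 for II, 0.50 for III, 0.53 for IV and 0.37 for V. When a trend with exonic length was removed in each library, the median of the members went from 0.50 to 0.29, with 42 higher and 5 lower. Among genes under 1000 exonic bases the median was 0.78 over 19 members and −0.01 over all 497 genes. Among those of 1000 to 2000 bases it was 0.48 over 30 members and 0.23 over all 1204 genes. From 2000 to 4000 bases it was 0.50 over 20 members and 0.11 over all 3144 genes, and beyond 4000 bases 0.14 over 10 members and −0.16 over all 5840 genes. Cycling markers differed between the same libraries, with 7 of 8 lower in macrophages and summed levels of 1090.55 to 1166.99 CPM in saline neutrophils against 313.174 to 467.203 CPM in saline macrophages, and their part in the difference was not tested.

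**Figure D4:**
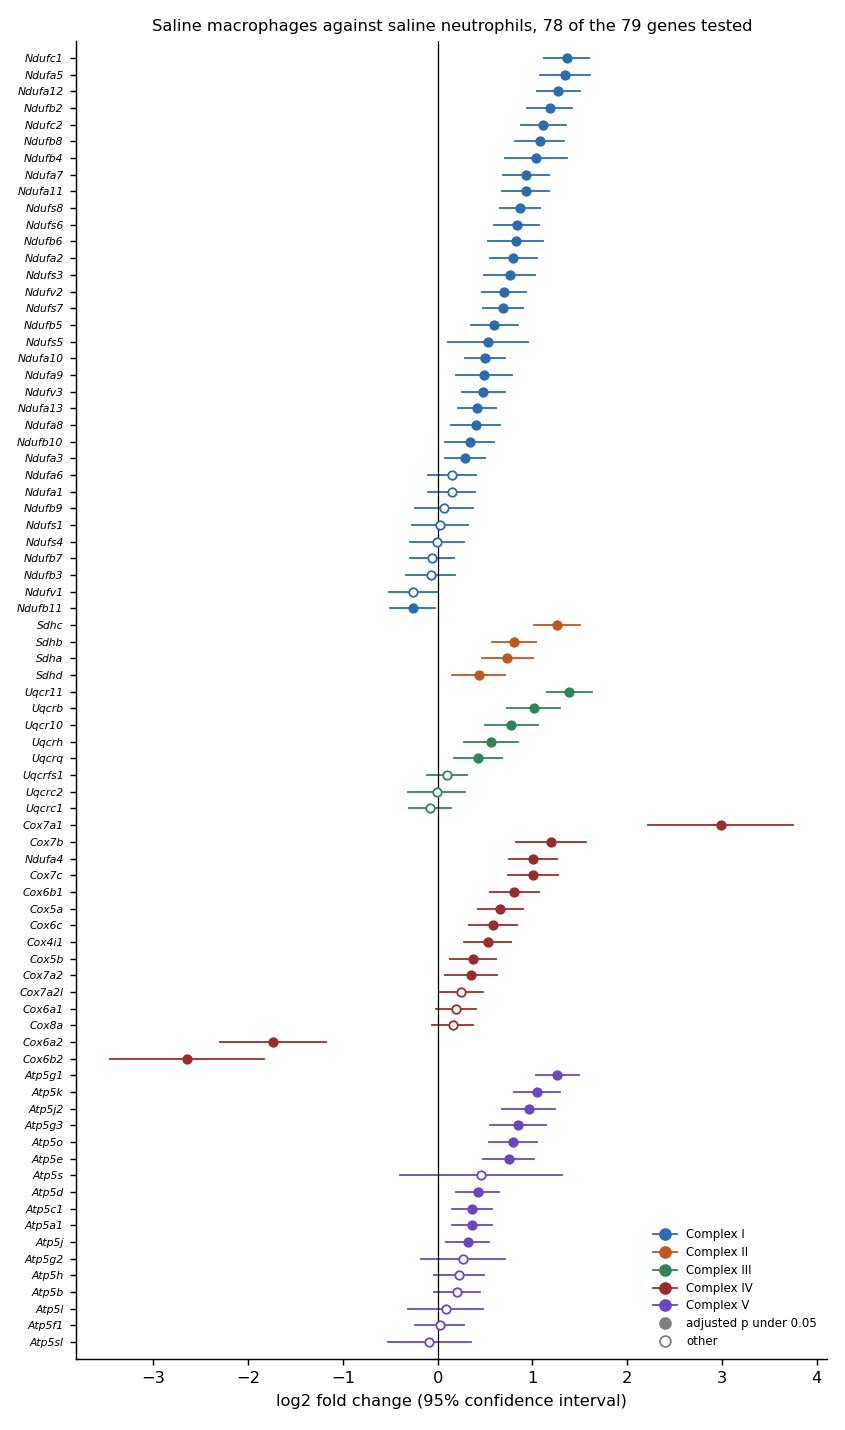
Log2 difference between saline macrophages and saline neutrophils (x axis, points) with its 95% confidence interval (lines) for 78 of the 79 genes tested, grouped and coloured by complex and ordered by the difference within each. Filled points passed an adjusted p under 0.05; 54 filled points lie to the right of 0, and Ndufb11, Cox6a2 and Cox6b2 lie to the left.

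In complex I, 25 of 35 genes were higher in macrophages (71.4%) and 1 was lower, beside 32.5% and 35.4% of all genes. The largest differences were in accessory subunits. Ndufc1 stood at 225, 221 and 206 CPM in saline neutrophils and at 546, 635 and 499 CPM in saline macrophages, a log2 difference of 1.36 (SE 0.11, limma-voom adjusted p = 3.74e-10). Ndufa5 went from 144, 158 and 141 CPM in neutrophils to 358, 439 and 332 CPM in macrophages (log2 difference 1.34, SE 0.13). Ndufa12 had 129, 143 and 137 CPM in neutrophils and 347, 354 and 291 CPM in macrophages (log2 difference 1.27, SE 0.11). The 3 genes were each higher in all macrophage libraries than in any neutrophil library.

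Core and accessory subunits of complex I were both mostly higher. Of the 7 nuclear-encoded core subunits, which carry the flavin and the iron-sulfur clusters, 4 were higher, from Ndufs7 (0.69) to Ndufs8 (0.87), and among the others Ndufs1 (0.03) and Ndufv1 (−0.26) did not pass. Of the 28 accessory subunits 21 were higher. Ndufb11 was the lower one, at 255, 252 and 248 CPM in neutrophils and at 192, 246 and 194 CPM in macrophages. Its log2 difference was −0.26 (SE 0.12, limma-voom adjusted p = 0.0464), a call that passed in 7 of 13 alternative settings and in 6 of the 12 fits without a single library. The 6 CGRP libraries alone gave −0.14 (limma-voom adjusted p = 0.315), and removing the length trend gave −0.57 (limma-voom adjusted p = 2.10e-05). Rbm10, which overlaps Ndufb11 on the opposite strand, differed in the same direction by −1.34 (1129 counts in all against 8496). Because the strand setting of the counting is not given in the sources used here, reads of such neighbours cannot be told apart, and the part of Rbm10 in the Ndufb11 value was not tested. Ndufs1 likewise overlaps Eef1b2, which had 10261 counts against 1607.

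All 4 genes of complex II, which links the citrate cycle to the chain, were higher in macrophages, beside 32.5% of all genes. Sdha, the flavoprotein that oxidizes succinate, stood at 120, 120 and 103 CPM in neutrophils and at 204, 159 and 214 CPM in macrophages (log2 difference 0.74, SE 0.13). Sdhb, the iron-sulfur protein, stood at 212, 207 and 211 CPM in neutrophils and at 367, 399 and 337 CPM in macrophages (log2 difference 0.81, SE 0.11). Sdhc, a membrane anchor, stood at 56.3, 69.7 and 65.6 CPM in neutrophils and at 152, 159 and 147 CPM in macrophages (log2 difference 1.26, SE 0.12). No library of one cell type reached the range of the other for these 3. Sdhd, the other anchor, was at 151, 181 and 154 CPM in neutrophils and at 218, 254 and 187 CPM in macrophages, with the smallest difference of the 4 (0.44, SE 0.14, limma-voom adjusted p = 0.00684) and a narrow gap between the groups. With the length trend removed Sdhd was at 0.16 and no longer passed (limma-voom adjusted p = 0.206).

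In complex III, where 5 of 8 genes were higher (62.5%, all genes 32.5%), the difference was seen in the small subunits. All 5 accessory genes were higher in macrophages, led by Uqcr11 (205, 215 and 198 CPM in neutrophils, 521, 650 and 463 CPM in macrophages, log2 difference 1.39, SE 0.12, limma-voom adjusted p = 3.83e-10). Uqcrb and Uqcr10 followed with 1.01 and 0.78, and Uqcr10 was at 0.49 and still passed with the length trend removed. None of the 3 core genes passed. Uqcrc1 had 294, 317 and 293 CPM in neutrophils and 315, 261 and 282 CPM in macrophages. Uqcrc2 had 116, 108 and 113 CPM in neutrophils and 118, 133 and 85.9 CPM in macrophages. Uqcrfs1 had 160, 169 and 157 CPM in neutrophils and 178, 178 and 164 CPM in macrophages. Their log2 differences lay between −0.08 and 0.10 and the groups overlapped. The difference between core and accessory genes was not tested.

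Complex IV held the widest range of differences. Several of its subunits come in forms known to be preferred by different tissues. Cox7a1, the form of subunit VIIa known from heart and skeletal muscle, stood at 1.90, 2.15 and 4.32 CPM in saline neutrophils (6, 7 and 12 counts) and at 20.4, 25.2 and 19.1 CPM in saline macrophages (71, 84 and 53 counts). This was a log2 difference of 2.99 (SE 0.37, limma-voom adjusted p = 2.20e-07), the largest of the 79 in size. Its widely used counterpart Cox7a2 had 390, 435 and 378 CPM in neutrophils and 497, 633 and 423 CPM in macrophages. Cox7a2 passed the test (log2 difference 0.35, SE 0.13, limma-voom adjusted p = 0.0229) although the groups overlapped, and was at 0.05 with the length trend removed. It was at 0.20 without saline macrophage library 2 (limma-voom adjusted p = 0.165) and also lost its call without saline neutrophil library 1 (0.0722) or 3 (0.0836). Cox7a2l had 185, 176 and 175 CPM in neutrophils and 200, 238 and 200 CPM in macrophages, which did not pass (0.25, limma-voom adjusted p = 0.0534). Its adjusted p ran from 0.00439 to 0.976 over 13 alternative settings, 3 of which called it, as did 2 of the 12 fits without a single library.

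The forms that were lower in macrophages were Cox6b2 and Cox6a2. Cox6b2, the subunit VIb form known from testis, stood at 22.8, 21.2 and 11.9 CPM in saline neutrophils (72, 69 and 33 counts) and at 1.72, 3.6 and 3.6 CPM in saline macrophages (6, 12 and 10 counts), a log2 difference of −2.65 (SE 0.39, limma-voom adjusted p = 2.82e-06). Its counterpart Cox6b1 went the other way, from 474, 480 and 438 CPM in neutrophils to 827, 963 and 673 CPM in macrophages (log2 difference 0.81, SE 0.12, and 0.51, still past the threshold, with the length trend removed). Cox6a2 stood at 14.9, 20.6 and 18.0 CPM in neutrophils and at 4.88, 4.79 and 6.11 CPM in macrophages (17, 16 and 17 counts), a log2 difference of −1.74 (SE 0.27, limma-voom adjusted p = 5.23e-06). With the CGRP libraries of both cell types in place of the saline ones, the log2 difference was −1.03 and still passed. Its counterpart Cox6a1 had 1066, 1149 and 955 CPM in neutrophils and 1228, 1319 and 1085 CPM in macrophages (log2 difference 0.20, limma-voom adjusted p = 0.0972), with overlap, and passed in 2 of 13 alternative settings. Erythroid and granulocyte markers were higher in the same neutrophil libraries, as described above, and their part in Cox6b2 and Cox6a2 was not tested.

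**Figure D5:**
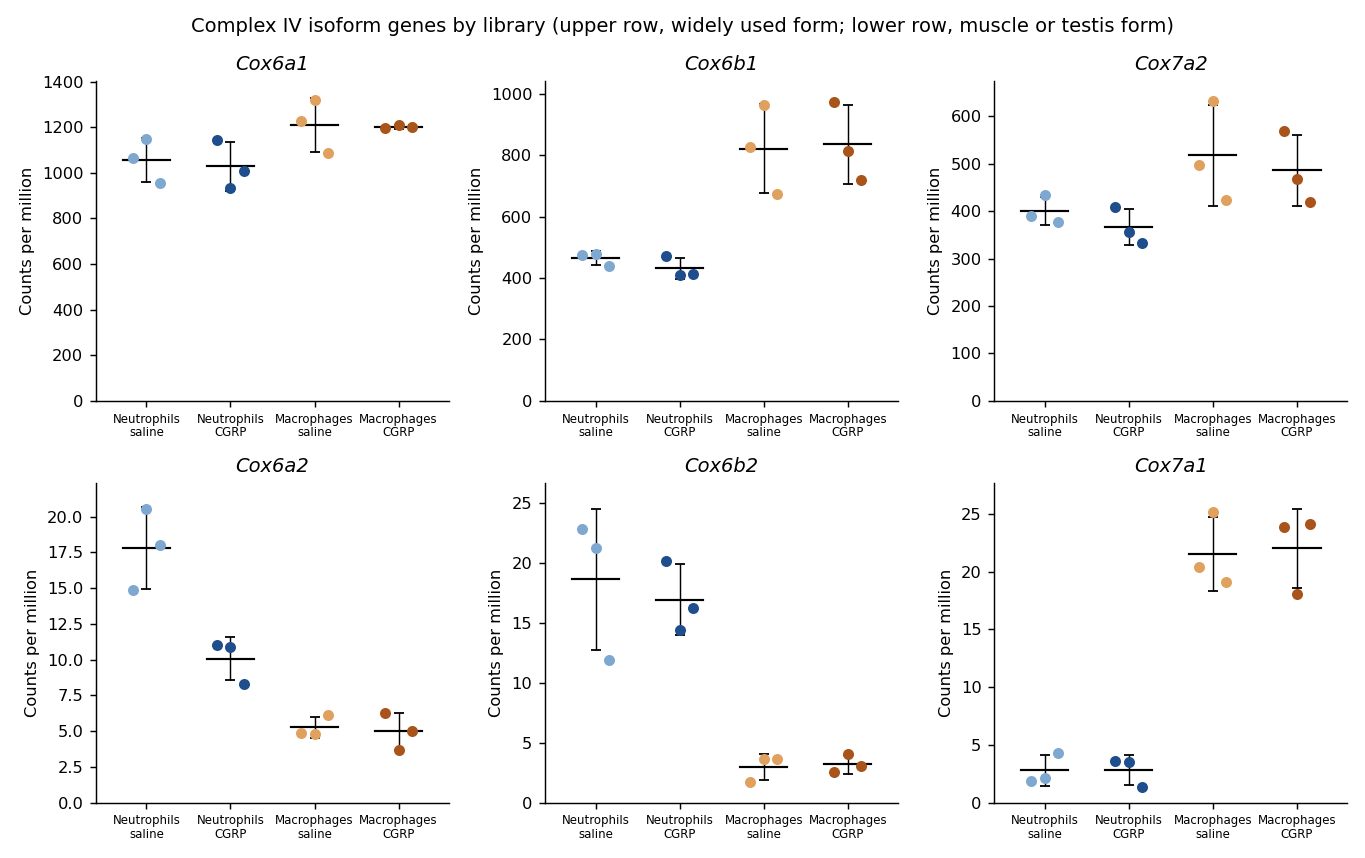
TMM-scaled CPM (y axes, from 0, a scale for each panel) of 3 complex IV isoform pairs in the 4 groups (x axis); points are libraries, bars means and whiskers 1 SD (n = 3). Cox7a1 is higher in every macrophage library than in any neutrophil library, Cox6a2 and Cox6b2 are lower in every macrophage library, and of the widely used forms in the upper row Cox6b1 alone is free of overlap between the saline groups.

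Most other complex IV genes were higher in macrophages, 10 of the 15 tested in all (66.7%), beside 32.5% of all genes. Cox7b had 275, 291 and 242 CPM in neutrophils and 610, 847 and 452 CPM in macrophages (log2 difference 1.2, SE 0.18). Ndufa4 had 442, 454 and 438 CPM in neutrophils and 852, 1084 and 770 CPM in macrophages (log2 difference 1.01, SE 0.12). Cox4i1, the form of subunit IV used in most tissues, had 1004, 1084 and 1017 CPM in neutrophils and 1441, 1811 and 1268 CPM in macrophages (log2 difference 0.53, SE 0.12). None of these groups overlapped. With the length trend removed Cox4i1 was at 0.29 and still passed. Emc8, on the opposite strand across Cox4i1, differed in the same direction by 1.66 (2339 counts against 45739), and its part in the Cox4i1 value was not tested. Cox8a had 340, 367 and 319 CPM in neutrophils and 373, 417 and 356 CPM in macrophages, which overlapped and did not pass (0.16, limma-voom adjusted p = 0.190), though it did in 2 of 13 alternative settings.

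In complex V, 10 of 17 genes were higher (58.8%) and none lower, beside 32.5% and 35.4% of all genes. The share called was thus below the 67.9% of all genes. The 17 include Atp5s and Atp5sl, which are not structural subunits and did not pass. The c ring, the rotor in the membrane, is built from a protein that Atp5g1, Atp5g2 and Atp5g3 all encode. Atp5g1 stood at 197, 219 and 181 CPM in neutrophils and at 502, 507 and 425 CPM in macrophages (log2 difference 1.26, SE 0.11). Atp5g3 stood at 221, 241 and 178 CPM in neutrophils and at 394, 449 and 311 CPM in macrophages (log2 difference 0.85, SE 0.14). Atp5g2 was low, at 10.4, 11.7 and 10.8 CPM in neutrophils and at 12.6, 13.2 and 14.0 CPM in macrophages, and did not pass (log2 difference 0.27, limma-voom adjusted p = 0.280), except with the 6 CGRP libraries alone (0.60, adjusted p = 0.0388). Of the membrane subunits Atp5k (1.05) and Atp5j2 (0.96) were higher and Atp5l was not called (0.08), and of the catalytic head and stalk Atp5a1, Atp5c1, Atp5d and Atp5e were higher by 0.36 to 0.75 while Atp5b did not pass (0.20). Between 52.1% and 84.0% of the 31-base words in the last 500 bases of Atp5l, Ndufs3, Atp5o, Atp5h, Uqcrb, Cox5a, Uqcrc2 and Atp5g1 also occur in other annotated genes, so that their counts are less certain. For Atp5g2 the share was 49.6%, in 6 other genes, so that its low level is less certain as well.

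Partners of the nuclear-encoded subunits were set beside the shares of all genes in the saline comparison (32.5% higher, 35.4% lower). Of 7 mitochondrially encoded genes tested, mt-Nd1 (0.79), mt-Cytb (0.40) and mt-Nd2 (0.28) were higher in saline macrophages and mt-Co1 was lower (−0.72, limma-voom adjusted p = 9.11e-06), so that 57.1% of them passed against 67.9% of all genes. mt-Co1 had 290, 285 and 300 CPM in neutrophils and 165, 163 and 210 CPM in macrophages. The nuclear-encoded subunits of the same complex, set out above, were mostly higher in macrophages. Of 17 subunits and carriers outside the name rule 10 were higher and 1 lower, among them Slc25a4, an ADP/ATP carrier (68.3, 72.1 and 68.1 CPM in neutrophils, 232, 293 and 241 CPM in macrophages, log2 difference 1.87), and Atpif1, the inhibitor that keeps ATP synthase from running backwards (472, 496 and 449 CPM in neutrophils, 1308, 1722 and 1194 CPM in macrophages, 1.56). Higd2a was the lower one (−0.30).

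Of 47 complex assembly factors tested 26 were higher in saline macrophages and 5 lower, beside 32.5% higher and 35.4% lower over all genes. Examples were Sdhaf4, an assembly factor of complex II (2.40), Ndufaf4 of complex I (2.39) and Uqcc2 of complex III (1.64), and in the other direction Ndufaf7 (−1.22). Of 25 citrate cycle and pyruvate genes 10 were higher and 4 lower, with Pdk1 at 2.71 and its relative Pdk3 at −1.37. Of 19 regulators of mitochondrial biogenesis 3 were higher, Ppargc1b (2.44), Myc (1.96) and Pprc1 (1.45), and 5 were lower, Gabpb1, Sirt3, Nrf1, Gabpa and Yy1, by 0.82 to 1.62. Ppargc1b, a coactivator of respiratory genes, was scarce, at 0.307 to 1.08 CPM in saline neutrophils and 2.88 to 4.88 CPM in saline macrophages, while Ppargc1a was at 0 in every macrophage library. These lists had medians of 0.49, 0.18 and −0.28 on the log2 scale.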

How the data were processed

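The authors prepared poly-dT-primed, UMI-tagged libraries that read the 3′ part of transcripts, aligned reads to GRCm38 with STAR within an nf-core RNA-seq pipeline using its UMI function, and deposited raw counts per gene from featureCounts as 1 table for each cell type (12 columns in all, 3 per group). The annotation release, the strand setting and the handling of multi-mapping reads are not given in the sources used here. The 2 tables were joined by gene identifier, and 52403 identifiers matched GENCODE M21, which supplied coordinates, exonic lengths, overlaps and shared 31-base words.

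CGRP was compared with saline within each cell type (6 libraries), and saline levels and the difference of the CGRP effects over all 12 libraries, with edgeR (4.0.16) filterByExpr and TMM and limma (3.58.1) voom, lmFit and eBayes in R (4.3.3). This follows the TMM and limma-voom analysis that the study states. Tests were two-sided, with Benjamini-Hochberg adjustment over all genes tested and a threshold of 0.05. A fold change from voom is on the scale of log2 CPM with a small offset. Alternatives were DESeq2 (1.42.0) and its size factors, edgeR's quasi-likelihood test, library totals, no filter, a minimum of 10 counts, quality weights, a replicate block, thinning to the smallest library, leaving out the 100 most abundant genes, each library left out and, added after seeing the data, removal of a length trend (loess, span 0.5). Scripts were tested on simulated data. Levels at the limit of 3 counts cover counting error only.

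Named genes were, for CGRP, those past the threshold and the lowest p in each complex; for the saline comparison, the 3 largest differences in each direction and complex; always the complex II genes, the tissue-specific forms and the c ring genes; and, from the other lists, up to 6 per comparison by adjusted p. Other core, head and stalk genes are named to complete the counts of their group, and Higd2a, Ndufaf7, Ppargc1b, Pprc1 and the genes with a cAMP response element were added after their values were seen. A few single values are not reported here. The members and lists were chosen with earlier results of these data known.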

Additional observations from a re-analysis of the deposited data

How the results depend on the processing

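Counts of members past the threshold kept their direction under the alternatives run, with these exceptions. For CGRP in macrophages the number of members higher went from 1 to 0 with library totals in place of TMM and with the length trend removed, and was 0 to 1 when single libraries were left out. For the difference of the CGRP effects the number higher went from 0 to 1 with quality weights. In the saline comparison the number lower went from 3 to 5 with the length trend removed. Leaving out single libraries gave 49 to 58 members higher, with 49 when saline macrophage library 2 was left out, and 2 to 3 lower. It gave 0 in every fit for CGRP in neutrophils, for members lower with CGRP in macrophages and for the difference of the CGRP effects. With the length trend removed the saline medians were 0.29 for all members, 0.25 for complex III, 0.29 for complex IV and 0.23 for complex V, and Cox6a1 (−0.11), Cox7a2l (−0.0039) and Cox8a (−0.13), none of which passed the test before, changed sign. Library totals took the median of the members to 0.03 in neutrophils and to −0.0450 in macrophages, where it was also just below 0 in 5 other settings. They shifted the median of all genes for the difference of the CGRP effects from 0.02 to −0.10, and that of the members to −0.0686 (complex III −0.10), while the distance between members and all genes stayed at 0.03 to 0.04. With library totals, genes higher made up 70.1% of all genes called for CGRP in neutrophils against 59.7%, and 36.4% against 51.2% for the difference of the CGRP effects. With TMM, complex II summed to a mean of 550 CPM in saline neutrophils and 932 CPM in saline macrophages, and complex IV to 5744 and 8614 CPM. The log2 ratio of the complex II sums was 0.86 with library totals. Counting each member equally gave a log2 difference of 0.38 for complex IV, which is not a ratio of sums. The log2 fold change of Sdhd in macrophages ran from −0.0542 to 0.22 when single libraries were left out. Cox7a1 and Cox6b2 gave no value under the minimum of 10 counts, nor Cox4i1 without the 100 most abundant genes. The cause of these changes was not tested.

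The labels give the groups the same replicate numbers, but libraries with the same number did not deviate together throughout. Their correlations across genes were −0.001, −0.033 and 0.069 for the neutrophil groups, 0.036, −0.122 and 0.172 for the macrophage groups and 0.065, 0.130 and 0.142 for the saline groups, where each library correlated best with its own number. Under a block for the replicate number, 289 genes in all were called in neutrophils, against 248, and 1007 in macrophages, against 698. The members called stayed at 0 in neutrophils and at 1 in macrophages, and were 55 higher and 3 lower in the saline comparison and 0 for the difference.

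With 2002559 to 3631989 counts a library, genes at few counts, such as Atp5s, Cox7a1 and Cox6b2, have wide intervals, and 5 members could not be tested at this depth.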
